A study of Mus musculus with 6 samples.

Results

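Oxidative phosphorylation is carried out by the 4 complexes of the respiratory chain, numbered I to IV, and by ATP synthase, or complex V, in the inner mitochondrial membrane. The genes described here are 99 of the 22186 genes in the deposited table. They are the subunits whose symbols match the naming patterns of these complexes and of cytochrome c, of which 86 are encoded in the nucleus, together with the 13 protein-coding genes of the mitochondrial genome. The samples were primary ADSCs (adipose-derived stem or stromal cells) of wild-type (WT) mice, profiled as 3 libraries after 48 h of co-culture with Tregs (regulatory T cells) and as 3 control libraries. Each library carries a batch number from 1 to 3, and the Treg co-culture and control libraries of the same number share a batch. The labels do not say whether the cells touched the Tregs, how Tregs were removed, or whether each library came from its own animal or culture. The p-values reflect how these particular libraries vary, which may be technical variation.

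Electrons from NADH enter at complex I and those from succinate at complex II, pass through coenzyme Q to complex III, are carried by cytochrome c to complex IV and reduce oxygen there. Complexes I, III and IV pump protons, and complex V uses the gradient to make ATP. Complexes I, III, IV and V each combine subunits made from nuclear genes, translated in the cytosol and imported, with a few made inside mitochondria from mitochondrial DNA, whereas complex II and cytochrome c are wholly nuclear. Myogenic and brown adipocyte differentiation are known to raise mitochondrial content, and some complex IV subunits have isoforms used mainly in heart and skeletal muscle.

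Values are TPM, a measure of level per gene length within a library. Comparisons of level between genes are limited by the capture of RNA on beads and the unknown handling of shared reads, both described below. TPM keeps no read depth, which is therefore unknown. Each library summed to 1000000 TPM, and of the 99 members, Cox7b2 and Cox8c, an isoform each of complex IV subunits 7b and 8, were listed at 0 in every library. The other 97 reached the minimum mean of 1 TPM and were tested together with all 12405 genes that did. Stromal markers were present in both groups, with the summed TPM of 12 genes at 2949.7 to 2983 in Treg co-culture and at 2977 to 3042 in control, but 4 of the 12 were higher and 7 lower in limma's test. Itgb1, the largest part of the sum, was at 1115 ± 9.05 TPM in Treg co-culture and 1057 ± 25.3 TPM in control (SD, n = 3 each), Cd44 was higher (log2 fold change 0.58, adjusted p = 6.08e-07), and Pdgfra (-0.45, adjusted p = 1.92e-06), Cd34 (-0.47, adjusted p = 3.35e-05) and Cd9 (-0.31, adjusted p = 7.61e-05) were lower. Without Treg co-culture library 1, 3 of the 12 were higher and 6 lower, and without Treg co-culture library 3, 2 were higher and 4 lower. The part of these markers in the results on the members was not tested. Skeletal muscle markers were present in both groups too, with a summed level of 3712 to 3794 TPM in Treg co-culture and 1467 to 1518 TPM in control, and 10 of the 11 tested were higher. Of 11 T cell markers in the table, 6 (Cd3e, Cd3d, Cd3g, Cd4, Il2ra and Ctla4) were at 0 in all libraries, and the summed level was 3.63 to 4.17 TPM in Treg co-culture and 3.59 to 3.81 TPM in control. Treg co-culture library 1 stood apart in liver and heart transcripts, with 64.9 TPM of Alb against at most 0.210 TPM in any other library. Several counts of calls over the members, the complexes and the gene lists are therefore also given without it.

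Taken as sums over all members, nuclear-encoded transcripts were more abundant and mitochondrially encoded ones less abundant after Treg co-culture. Sums by complex overlapped between the groups for the nuclear members of complexes II and IV and for the mitochondrial members of complex I. Abundant genes weigh most in these sums and in their ratio. COX1 alone averaged 19085 TPM in Treg co-culture and 21187 TPM in control. The nuclear members of complex V summed to a mean of 5155 TPM in Treg co-culture and 4743 TPM in control. Summed over the nuclear-encoded members, the Treg co-culture libraries 1 to 3 held 13439, 13401 and 13212 TPM, against 12653, 12639 and 12515 TPM in the control libraries. The means were 13351 ± 122 TPM in Treg co-culture and 12602 ± 75.8 TPM in control (SD, n = 3 each), a difference of 5.94%, and the groups did not overlap. Summed over the 13 mitochondrially encoded members, the Treg co-culture libraries held 88477, 85524 and 86350.0 TPM, against 93843, 90376 and 90147 TPM in control. The means were 86784 ± 1523 TPM in Treg co-culture and 91455 ± 2071 TPM in control (SD, n = 3 each), a difference of -5.11%, again without overlap. Mitochondrially encoded transcripts thus made up 8.55% to 8.85% of all TPM in Treg co-culture and 9.01% to 9.38% in control, and nuclear-encoded ones 1.32% to 1.34% in Treg co-culture and 1.25% to 1.27% in control.

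The ratio of the 2 sums within a library is independent of how libraries were scaled, but can depend on how much of each transcript was captured. It was 6.58, 6.38 and 6.54 in the Treg co-culture libraries, against 7.42, 7.15 and 7.20 in the control libraries. The mean ratio of 6.50 ± 0.105 in Treg co-culture was 0.896 times the mean of 7.26 ± 0.141 in control (SD, n = 3 each). Within batches 1, 2 and 3 the Treg co-culture ratio was 0.888, 0.893 and 0.907 times that of its control. The same order held in each complex that draws on both genomes, with Treg co-culture ratios at 0.912 times control in complex I, 0.892 times in complex III, 0.923 times in complex IV and 0.888 times in complex V, and the groups overlapped in none of them. In these bulk samples a different number of cells of one type and a different amount of RNA per cell cannot be told apart. Skeletal muscle marker levels moved in the same libraries (given above), and their part in these differences was not tested.

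**Figure D1:**
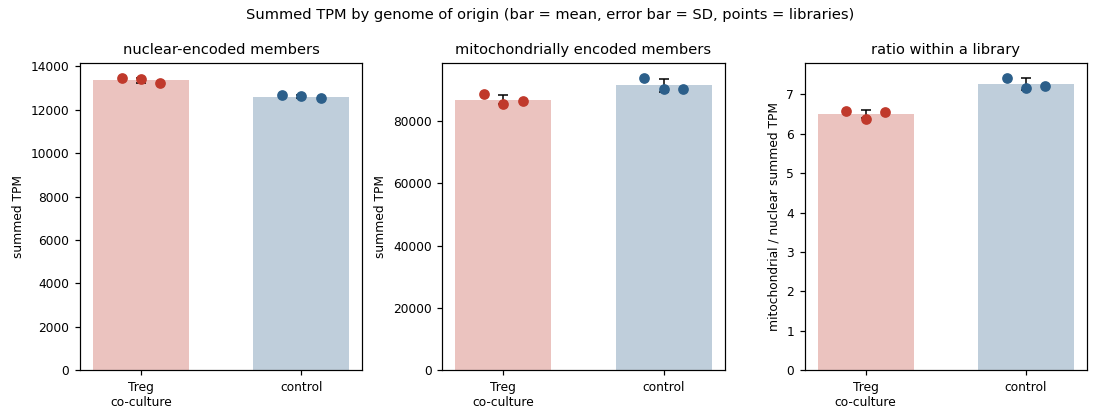
Summed TPM of the nuclear-encoded members (left) and of the mitochondrially encoded members (middle), and the mitochondrial to nuclear ratio within each library (right). Bars are means, error bars SD and points the 3 libraries of each group. The Treg co-culture libraries lie above the control libraries on the left and below them in the other 2 panels, with mean ratios of 6.50 in Treg co-culture and 7.26 in control.

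Gene by gene, 25 members were higher in Treg co-culture and 9 were lower in limma's test on log2(TPM + 1) values, with p-values adjusted by the Benjamini-Hochberg method across the whole set of tested genes and called at 0.05 or less. Across all 12405 genes tested the same rule called 37.8%, with 19.8% of genes higher and 18.0% lower, so the 25.8% of members called higher was above the background and the 9.28% called lower was below it. Without the mean-variance trend 14 of the 97 members were higher, which was not above the 17.1% of all genes higher in that setting. Of the 84 nuclear-encoded members tested, 24 (28.6%) were higher and 2 (2.38%) lower, with a median log2 fold change of 0.0713 against 0.0015 over all genes tested. Of the 13 mitochondrially encoded members, 1 (7.69%) was higher and 7 (53.8%) lower, with a median of -0.0618. Groups did not overlap for 25 nuclear members with Treg co-culture on top and 1 with control on top, where 25.3% and 24.0% of all genes tested were separated in those directions. Among the mitochondrial members, 1 was separated with Treg co-culture on top and 7 with control on top. Within batches 1, 2 and 3 the nuclear medians were 0.0722, 0.0773 and 0.0918, and the mitochondrial medians were -0.0817, -0.0617 and -0.0458. Without Treg co-culture library 1, 22 nuclear members were higher and 0 lower, and 1 mitochondrial member was higher and 7 lower. By complex, the nuclear members then called higher numbered 7 in complex I, 1 in complex II, 3 in complex III, 3 in complex IV and 7 in complex V, with cytochrome c called as well.

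Of the mitochondrial members, 2 were called lower without the filter on low genes, 1 without the mean-variance trend and 3 under quantile normalization, which gives the highest-ranked genes the same value in every library and put the mitochondrial median at 0. COX1 kept its call in each setting but quantile normalization, and ND1 in each setting but the test without the trend. Nuclear members called higher numbered 14 without the trend, also not above the 17.1% of all genes, and 18 to 26 in the other settings at the same threshold. Over nuclear and mitochondrial members together, those called lower numbered 5 without control library 2 and 4 without Treg co-culture library 3.

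These changes were small. The median size of the log2 fold change was 0.172 among members past the threshold and 0.309 among all genes past it. The members were also measured tightly, with a median SE of 0.0465 against 0.0701 over all genes tested.

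**Figure D2:**
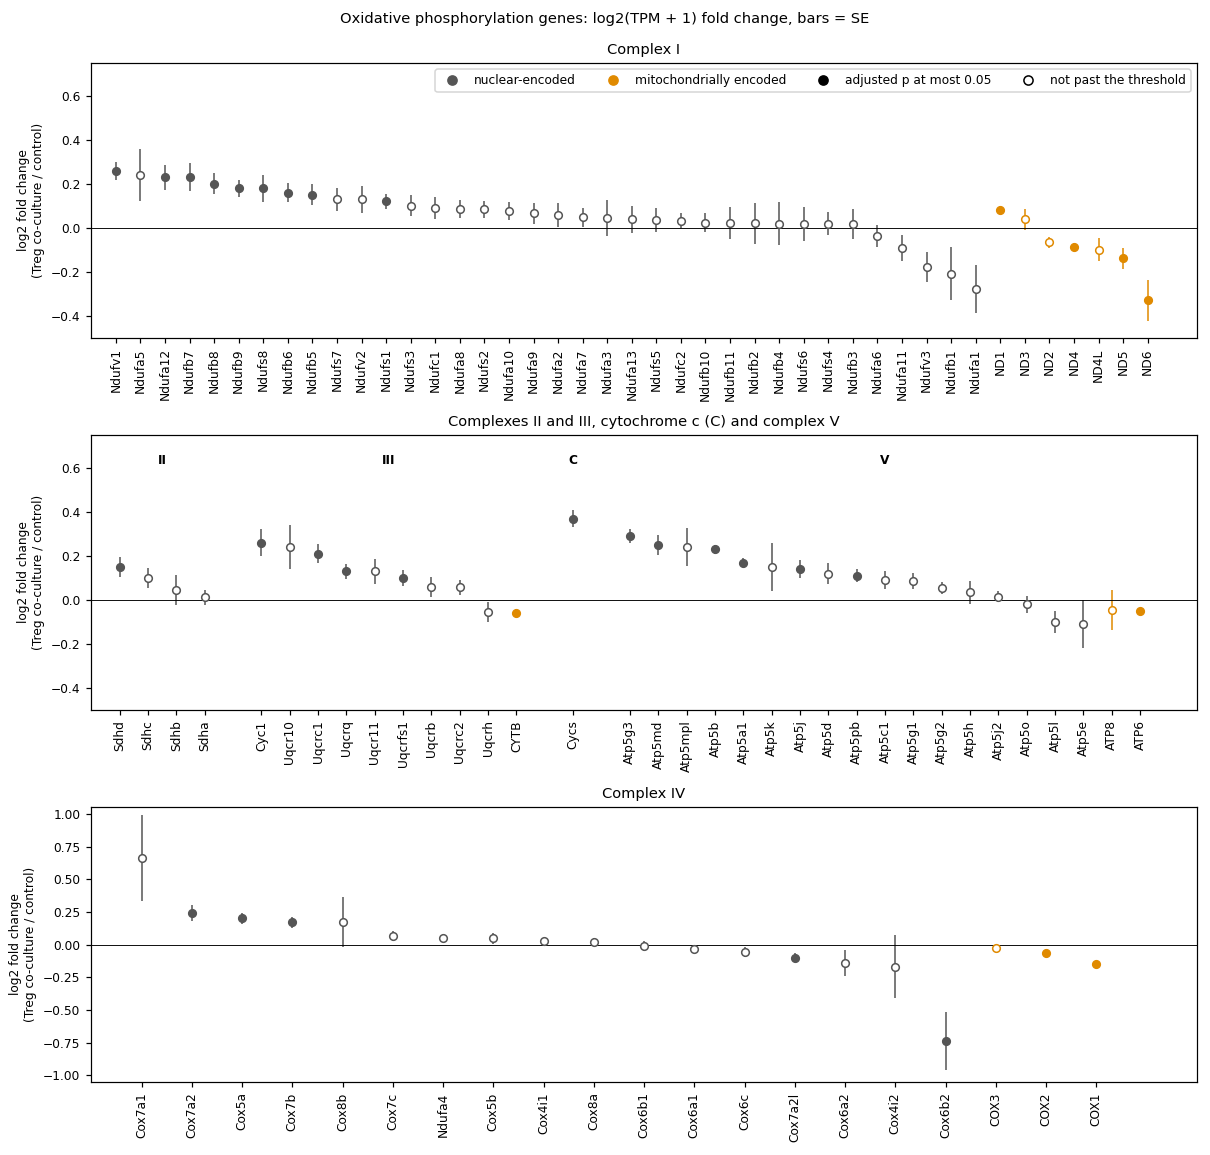
Log2 fold change of each of the 97 members tested, Treg co-culture over control on the log2(TPM + 1) scale, with its SE as bars, by complex. Filled points passed the adjusted p threshold, orange points are mitochondrially encoded, and the scale of the complex IV panel is wider. The points run from -0.74 (Cox6b2) to 0.66 (Cox7a1), and filled nuclear points lie above 0 except for Cox6b2 and Cox7a2l.

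Complex I, the NADH dehydrogenase, had 36 nuclear-encoded members, of which 9 (25.0%, against 19.8% of all genes) were higher and 0 lower in limma's test (2 were lower at an unadjusted p under 0.05), with a median log2 fold change of 0.0608. Without the mean-variance trend 3 of the 36 were higher, below the 17.1% of all genes higher in that setting. The number was 6 to 9 when single libraries were left out. It was 6 without control library 2 or 3 or Treg co-culture library 3, near the 16.6% to 17.3% of all genes higher there. In addition, 2 were called lower without control library 3 or without Treg co-culture library 2. All 7 nuclear core subunits, which carry the flavin and the iron-sulfur clusters or shape the quinone site, had log2 fold changes above 0, with a median of 0.13, and 3 of the 7 (Ndufv1, Ndufs1 and Ndufs8) passed the test. The call of Ndufs1 was lost without Treg co-culture library 1 or control library 2 or 3 (adjusted p = 0.0546 to 0.0970), and that of Ndufs8 without any library but control 3 (adjusted p = 0.0573 to 0.144). Ndufv1, which binds FMN and takes the electrons from NADH, was at 84.7, 83.7 and 80.0 TPM in Treg co-culture, against 69.0, 71.7 and 66.8 TPM in control. Every Treg co-culture library lay above every control library, and the log2 fold change was 0.26 (SE 0.0416, adjusted p = 0.000862). The 29 accessory subunits, which surround the core and support its assembly, had 6 higher and a median of 0.0375. Of those 6, 5 belong to the 11 Ndufb genes (45.5%, against 19.8% of all genes), whose products sit in the membrane arm. The median log2 fold change of the 11 was 0.0219, below that of all accessory subunits. Without Treg co-culture library 1, 4 of the 11 were called higher (36.4%, against 17.1% of all genes). Only 2 of the 11 (18.2%, near the 16.6% of all genes) were called without Treg co-culture library 3. Ndufb5, Ndufb6 and Ndufb7 then missed the threshold (adjusted p = 0.0919, 0.0721 and 0.0625). Without control library 3, 3 were called higher (27.3%, against 17.2% of all genes) and Ndufb1 was called lower (-0.38, adjusted p = 0.00382). Without the trend 1 was called (9.09%, below the 17.1% of all genes). Ndufb9 was at 111, 111 and 114 TPM in Treg co-culture, against 94.9, 98.9 and 103 TPM in control (log2 fold change 0.18, SE 0.0383, adjusted p = 0.00415). Ndufb8 was at 158, 161 and 141 TPM in Treg co-culture, against 137, 130.1 and 133 TPM in control (0.20, SE 0.0486, adjusted p = 0.00957), and neither gene's groups overlapped. The other accessory subunit called was Ndufa12 of the matrix arm, at 75.8, 69.2 and 67.2 TPM in Treg co-culture and 63.9, 60.1 and 56.8 TPM in control (0.23, SE 0.0569, adjusted p = 0.0103). The 27 nuclear members of complex I that did not pass the test had log2 fold changes from -0.28 (Ndufa1, adjusted p = 0.0842) to 0.24 (Ndufa5, adjusted p = 0.134). With the batch number as a block, Ndufa1 and Ndufv3, a small subunit of the NADH-binding module, were called lower, Ndufv2 was called higher, and Ndufb5 and Ndufs8 were not called.

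Complex II, succinate dehydrogenase, is also an enzyme of the TCA cycle and has no mitochondrially encoded subunit. Its membrane anchor gene Sdhd was at 134, 134 and 141 TPM in Treg co-culture, against 132, 119 and 118 TPM in control, separated by a narrow margin (log2 fold change 0.15, SE 0.0469, adjusted p = 0.0278). The other anchor gene, Sdhc, had a log2 fold change of 0.10 (adjusted p = 0.132). The iron-sulfur subunit Sdhb had 0.0451 (adjusted p = 0.649), and the catalytic flavoprotein Sdha, at 156 ± 4.67 TPM in Treg co-culture and 155 ± 3.90 TPM in control, had 0.0120 (adjusted p = 0.809). The call of Sdhd was lost without Treg co-culture library 3 or control library 2 or 3 (adjusted p = 0.0957 to 0.0993). A p above the threshold does not show equal levels.

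Complex III passes electrons from coenzyme Q to cytochrome c, and 4 of its 9 nuclear-encoded members (44.4%, against 19.8% of all genes) were higher and 0 lower in limma's test (0 also at an unadjusted p under 0.05), with a median log2 fold change of 0.13. Without the mean-variance trend 3 of the 9 were higher, where 17.1% of all genes were. Uqcrc1, a large matrix-facing core protein, was at 166, 187 and 176 TPM in Treg co-culture, against 149, 149.6 and 157 TPM in control (log2 fold change 0.21, SE 0.0435, adjusted p = 0.00322). Cyc1, the cytochrome c1 that hands electrons to cytochrome c, was at 84.3, 79.7 and 86.1 TPM in Treg co-culture and 62.8, 72.8 and 73.4 TPM in control (0.26, SE 0.0605, adjusted p = 0.00725). Neither gene's groups overlapped. Uqcrq, a small subunit, was at 95.3, 96.9 and 92.9 TPM in Treg co-culture and 87.7, 85.8 and 87.2 TPM in control (0.13, SE 0.0342, adjusted p = 0.0139). Uqcrfs1, the Rieske iron-sulfur protein, was at 110.5, 110.4 and 113 TPM in Treg co-culture and 99.9, 107 and 105 TPM in control (0.10, SE 0.0353, adjusted p = 0.0499, at the edge of the threshold), and its call was lost in 13 of 16 other settings. Without Treg co-culture library 2, when Uqcrq was not called either (adjusted p = 0.0537), 2 of the 9 were higher. The 5 that did not pass ranged from -0.0544 (Uqcrh, a hinge protein near cytochrome c1) to 0.24 (Uqcr10, a small subunit). The complex's mitochondrially encoded subunit, CYTB, went the other way and is described below.

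Cycs, the soluble cytochrome c of somatic cells, had the highest log2 fold change of the members that passed the test. It was at 88.3, 85.4 and 88.1 TPM in Treg co-culture, against 69.2, 64.8 and 67.4 TPM in control. The groups were far apart relative to their spread (log2 fold change 0.37, SE 0.0389, adjusted p = 4.21e-05), a difference in mean TPM of 30.0%. Cycs has processed copies in the mouse genome, and the treatment of reads shared between such copies is not known here.

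Complex IV, cytochrome c oxidase, gave a more mixed picture, with 3 of the 17 nuclear-encoded members tested higher (17.6%, below the background of 19.8%), 2 lower (11.8%) and a median log2 fold change of 0.0248. Cox5a, an early-assembling matrix-side subunit, was at 164, 156 and 154 TPM in Treg co-culture, against 139, 130.2 and 142 TPM in control (log2 fold change 0.20, SE 0.0401, adjusted p = 0.00270). Cox7a2, the form of subunit 7a found in most tissues, was at 127, 116 and 122 TPM in Treg co-culture and 107, 109 and 92.9 TPM in control (0.24, SE 0.0589, adjusted p = 0.00914). Cox7b, an X-linked subunit, was at 111, 119.8 and 121 TPM in Treg co-culture and 106, 106 and 99.8 TPM in control (0.17, SE 0.0428, adjusted p = 0.00916). The groups were separated for all 3 genes. Cox7a2l, a relative of subunit 7a that joins complexes III and IV into supercomplexes, was lower, at 270.0, 277 and 255 TPM in Treg co-culture and 285, 284 and 289 TPM in control (log2 fold change -0.10, SE 0.0320, adjusted p = 0.0338), a call lost without any 1 library except Treg co-culture 2 (adjusted p = 0.0565 to 0.123). The abundant subunits Cox4i1, Cox5b, Cox6a1, Cox6b1, Cox6c, Cox7c, Cox8a and Ndufa4 had log2 fold changes between -0.0555 and 0.0652 and did not pass the test.

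The isoforms of complex IV tied to particular tissues stayed at low levels in both groups. Cox6a2, the heart and skeletal muscle form of subunit 6a, was at 26.2, 24.5 and 19.1 TPM in Treg co-culture, against 26.7, 25.3 and 24.7 TPM in control, with overlapping groups (log2 fold change -0.14, SE 0.10, adjusted p = 0.299). It made up 5.70% to 7.40% of the Cox6a TPM in Treg co-culture and 6.92% to 7.50% in control. Cox7a1, the heart and muscle form of subunit 7a, was at 4.50, 1.18 and 2.19 TPM in Treg co-culture, against 2.15, 0.734 and 0.786 TPM in control, and the groups overlapped (0.66, SE 0.33, adjusted p = 0.146). In each batch the Treg co-culture library was the higher. With the batch number as a block the adjusted p was 0.0197, and without Treg co-culture library 2 it was 0.0411. Without Treg co-culture library 1, which had the highest value, the log2 fold change was 0.30 (adjusted p = 0.459). Cox8b, an isoform of subunit 8 used in muscle and brown fat, was at 2.10, 3.17 and 2.95 TPM in Treg co-culture and 2.89, 2.59 and 1.58 TPM in control (0.17, SE 0.19, adjusted p = 0.516). Cox6b2, the testis-enriched form of subunit 6b, was lower, at 3.49, 4.96 and 3.25 TPM in Treg co-culture and 4.53, 9.23 and 8.29 TPM in control. Its groups overlapped, and the call (log2 fold change -0.74, SE 0.22, adjusted p = 0.0230) was lost without Treg co-culture library 1 or 3 or control library 2 or 3 (adjusted p = 0.0630 to 0.0930). Cox4i2, the form of subunit 4 known from lung and low oxygen, was at 2.44, 2.77 and 2.94 TPM in Treg co-culture and 3.06, 1.85 and 5.34 TPM in control (-0.17, SE 0.24, adjusted p = 0.612).

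**Figure D3:**
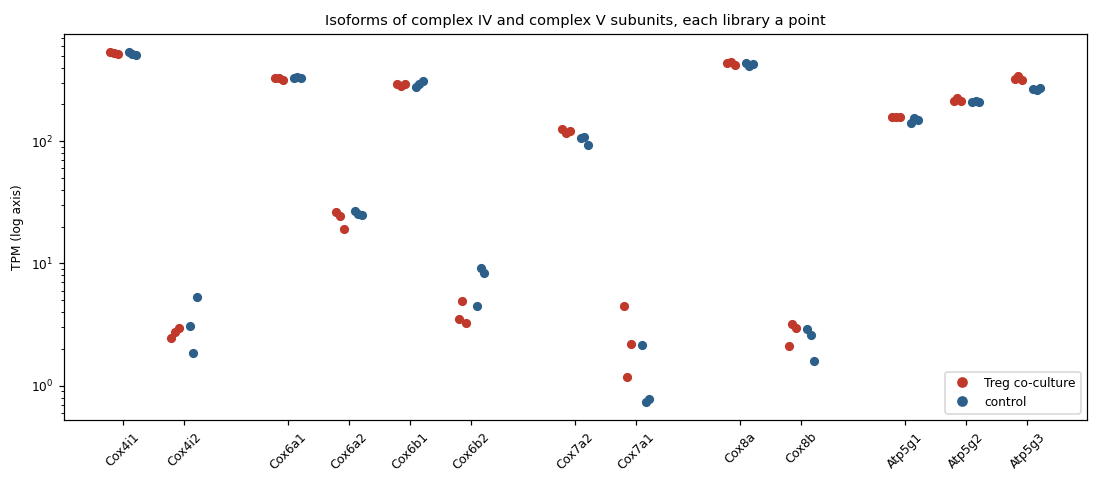
TPM of each isoform of complex IV subunits 4, 6a, 6b, 7a and 8 and of the complex V c subunit, on a log axis, with a point for each of the 3 Treg co-culture and 3 control libraries. Cox7b2 and Cox8c, at 0 throughout, are not drawn. The muscle isoforms Cox6a2, Cox7a1 and Cox8b lie well below their widely used counterparts in both groups, and of the isoforms drawn the groups are separated for Cox7a2, Atp5g1, Atp5g2 and Atp5g3.

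Complex V, ATP synthase, had 6 of its 17 nuclear-encoded members (35.3%, against 19.8% of all genes) higher and 0 lower in limma's test (0 also at an unadjusted p under 0.05). The median log2 fold change was 0.11, and the summed nuclear TPM of the complex differed by 8.68%. Without the mean-variance trend 4 of the 17 were higher, where 17.1% of all genes were. Atp5b, the catalytic beta subunit of the F1 head and the most abundant nuclear-encoded member, was at 1132, 1089.8 and 1079 TPM in Treg co-culture, against 933, 934 and 939 TPM in control. The groups were widely separated (log2 fold change 0.23, SE 0.0213, adjusted p = 1.65e-05). Atp5a1, the alpha subunit that alternates with beta in the F1 ring, was at 548, 558 and 558 TPM in Treg co-culture and 488, 503 and 489 TPM in control (0.17, SE 0.0219, adjusted p = 0.000193). The other F1 subunits, gamma (Atp5c1), delta (Atp5d) and epsilon (Atp5e), did not pass the test, with log2 fold changes of 0.0901, 0.12 and -0.11. Atp5md, a small subunit that holds ATP synthase dimers together, was at 145, 151 and 148 TPM in Treg co-culture, against 131, 127 and 115 TPM in control (0.25, SE 0.0463, adjusted p = 0.00179). The other 4 supernumerary subunits did not pass, with log2 fold changes from -0.10 (Atp5l) to 0.24 (Atp5mpl). With the batch number as a block, Atp5mpl (adjusted p = 0.00120) and Atp5c1 (adjusted p = 0.0461) were called as well, so that 8 of the 17 were higher. In the peripheral stalk, which stops the head from turning with the rotor, Atp5pb had a log2 fold change of 0.11 (adjusted p = 0.0117) and Atp5j 0.14 (adjusted p = 0.0179, and 0.0514 and 0.0527 without Treg co-culture library 2 or 3), while Atp5h had 0.0346 and Atp5o -0.0207.

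The rotor ring of complex V is built from subunit c, which 3 genes encode with the same mature protein and different import sequences. Atp5g3 was at 325, 342 and 316 TPM in Treg co-culture, against 267, 263 and 273 TPM in control (log2 fold change 0.29, SE 0.0323, adjusted p = 6.96e-05). Atp5g1 (157 ± 1.18 TPM in Treg co-culture and 148 ± 6.71 TPM in control) and Atp5g2 (218 ± 6.21 TPM in Treg co-culture and 210.5 ± 0.918 TPM in control, SD, n = 3 each) were separated between groups by small margins and did not pass the test, with adjusted p of 0.0870 and 0.174. Atp5g3 therefore supplied 46.5%, 47.2% and 46.0% of the c subunit TPM in Treg co-culture, against 43.2%, 41.8% and 43.1% in control. The share of Atp5g2 was 30.8% to 31.2% in Treg co-culture and 33.1% to 34.0% in control, and that of Atp5g1 overlapped. How reads were divided among these related genes is not known here.

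Promoters of the nuclear-encoded members with the lowest adjusted p are shown next, since these are the members that moved most clearly against their spread. They were taken from RefSeq on GRCm38.p6 and run from 250 bases before to 50 after the start site, 5′ to 3′ on the gene's strand. Atp5b lies at chr10:128083057-128083356 on the plus strand, Atp5g3 at chr2:73911277-73911576 on the minus strand and Cycs at chr6:50566520-50566819 on the minus strand. Capitals mark letters of known regulators of respiratory or muscle genes, an E-box (CAGCTG) in Atp5b, an estrogen-related receptor (ERR) motif read on the other strand in Atp5g3, and a CREB motif followed by an NRF1 motif in Cycs.
Atp5b: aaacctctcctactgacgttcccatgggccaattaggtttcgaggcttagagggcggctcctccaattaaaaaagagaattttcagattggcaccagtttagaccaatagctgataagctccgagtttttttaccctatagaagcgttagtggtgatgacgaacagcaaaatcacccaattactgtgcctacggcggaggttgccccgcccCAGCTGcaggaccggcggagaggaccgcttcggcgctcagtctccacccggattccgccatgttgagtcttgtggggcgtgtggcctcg
Atp5g3: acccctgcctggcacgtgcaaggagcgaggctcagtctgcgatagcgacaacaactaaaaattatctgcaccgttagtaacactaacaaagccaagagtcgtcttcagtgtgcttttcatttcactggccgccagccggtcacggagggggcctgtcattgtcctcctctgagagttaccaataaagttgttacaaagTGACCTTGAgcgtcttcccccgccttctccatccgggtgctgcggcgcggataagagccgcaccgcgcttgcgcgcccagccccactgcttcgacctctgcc
Cycs: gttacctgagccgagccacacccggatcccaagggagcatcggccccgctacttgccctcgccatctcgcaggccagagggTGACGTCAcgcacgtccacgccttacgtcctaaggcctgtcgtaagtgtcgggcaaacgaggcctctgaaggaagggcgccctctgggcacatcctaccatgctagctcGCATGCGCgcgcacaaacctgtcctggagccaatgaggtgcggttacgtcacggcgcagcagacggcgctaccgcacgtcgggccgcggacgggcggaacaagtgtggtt
The letters searched, on both strands, were GCATGCGC for NRF1, CCGGAAG for GABP, AAGATGGCG for YY1, TCAAGGTCA for ERR, CAGCTG for the E-box bound by myogenic factors and TGACGTCA for CREB. The 2 strands of the NRF1 letters can overlap each other in 1 site, and the NRF1 and CREB letters were chosen after promoters had been read. Of the 86 nuclear-encoded members, 70 had a promoter in the table. NRF1 letters were in 11 of these (15.7%), in 3.05% of all 27025 genes with a promoter and in 6.02% of the 9870 of them tested. GABP letters were in 17 members (24.3%), 9.93% of all genes and 20.3% of tested genes. YY1 letters were in 7 of the 70 members, 1.64% of all genes and 3.59% of tested genes, and CREB letters in 5 (7.14%), 2.03% and 3.58%. ERR letters were in 2 members (2.86%), Atp5g3 and Sdhd, 0.466% of all genes and 0.294% of tested genes, and E-box letters in 6 (8.57%), 18.3% and 17.9%. Of the 19 members with a promoter that were higher in Treg co-culture, NRF1 letters were in 2 and GABP letters in 6, against 9 and 11 of the other 51. A match is a run of letters and does not show binding.

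The mitochondrial genome encodes 7 subunits of complex I (ND1 to ND6 and ND4L), CYTB of complex III, COX1 to COX3 of complex IV and ATP6 and ATP8 of complex V. Its genes are transcribed as long precursors that are cut at the tRNAs between them, and every one of these protein-coding genes but ND6 lies on the same strand. The libraries were made from RNA enriched on mRNA capture beads, so the values hold the part of each mitochondrial transcript that those beads retained. COX1, the catalytic core of complex IV and the most abundant member, was at 19429.6, 18845 and 18979.8 TPM in Treg co-culture, against 21674, 20969.7 and 20916 TPM in control. The groups did not overlap and the log2 fold change was -0.15 (SE 0.0165, adjusted p = 5.95e-05). COX2, which carries the first copper centre, was at 13807, 13850.3 and 13847 TPM in Treg co-culture and 15067, 14044 and 14230.1 TPM in control (-0.0618, SE 0.0221, adjusted p = 0.0499). Its groups were separated, but the call was lost without any 1 library except control 1 or 2 (adjusted p = 0.0549 to 0.107), and under quantile normalization the log2 fold change was 0.0245. COX3, a structural core subunit, was at 11174, 10727 and 10768 TPM in Treg co-culture and 11454, 10894 and 10909 TPM in control, with overlapping groups (-0.0257, SE 0.0219, adjusted p = 0.390).

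ND1, the membrane-arm subunit next to the quinone site and the first protein-coding gene in the map, was the mitochondrial member that was higher. It was at 7006, 6917 and 6820.1 TPM in Treg co-culture, against 6724, 6477 and 6408 TPM in control, without overlap (log2 fold change 0.0813, SE 0.0189, adjusted p = 0.00699). Of the other 6 mitochondrial genes of complex I, 3 were lower and 3 did not pass the test. ND4, a proton-pumping subunit, was at 5484, 5368 and 5636 TPM in Treg co-culture and 5911, 5769 and 5818 TPM in control (-0.0860, SE 0.0187, adjusted p = 0.00473). ND5, another pumping subunit, was at 4208, 3569 and 3957 TPM in Treg co-culture and 4368, 4356 and 4222 TPM in control (-0.14, SE 0.0465, adjusted p = 0.0321). ND6, the gene on the other strand, was at 2121, 1503 and 1798 TPM in Treg co-culture and 2305, 2285 and 2173 TPM in control (-0.33, SE 0.0931, adjusted p = 0.0176). None of these 3 genes had overlapping groups, and ND5 and ND6 varied more among the Treg co-culture libraries (SD 322 and 309 TPM) than among the control libraries (80.9 and 71.1 TPM). The call of ND5 was lost without Treg co-culture library 2 or 3 or control library 1 or 2 (adjusted p = 0.0503 to 0.0908), and that of ND6 without control library 1 or 2 (adjusted p = 0.0553 and 0.0554). Treg co-culture library 2 held the lowest value of both, and without it the log2 fold changes were -0.0806 for ND5 and -0.21 for ND6 (adjusted p = 0.0240). ND2, ND3 and ND4L, further membrane-arm subunits, had overlapping groups and did not pass the test. ND2 was at 3053, 2884 and 2984 TPM in Treg co-culture and 3231, 3075 and 3038 TPM in control (-0.0665, SE 0.0264, adjusted p = 0.0728). It was called lower under quantile normalization (adjusted p = 0.00339), with the batch number as a block (adjusted p = 0.0171) and without Treg co-culture library 1 (adjusted p = 0.0409). ND3 was at 1203, 1156 and 1096 TPM in Treg co-culture and 1217, 1089 and 1061 TPM in control (0.0387, SE 0.0483, adjusted p = 0.565). ND4L was at 904, 1004 and 851 TPM in Treg co-culture and 939, 989 and 1014 TPM in control (-0.10, SE 0.0514, adjusted p = 0.174), and without Treg co-culture library 2 it was called lower, with a log2 fold change of -0.16.

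CYTB, the subunit of complex III that oxidizes coenzyme Q, was at 8479, 8406 and 8533 TPM in Treg co-culture, against 9064, 8779.6 and 8667 TPM in control (log2 fold change -0.0605, SE 0.0169, adjusted p = 0.0173). ATP6, which forms the proton path of complex V, was at 10707, 10322 and 10356 TPM in Treg co-culture and 10923, 10773 and 10861 TPM in control (-0.0530, SE 0.0155, adjusted p = 0.0214). ATP8, a short membrane subunit, was at 902, 973 and 724 TPM in Treg co-culture and 966, 875 and 830.2 TPM in control, with overlapping groups (-0.0475, SE 0.0917, adjusted p = 0.720). The groups were separated for CYTB and ATP6, and both calls were lost without Treg co-culture library 2 (adjusted p = 0.0653 and 0.0890), that of ATP6 also without Treg co-culture library 3 or control library 3 (adjusted p = 0.0876 and 0.0587).

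Shares within the mitochondrial TPM do not depend on the scaling of the libraries. ND1 took 7.92%, 8.09% and 7.90% of it in Treg co-culture, against 7.16%, 7.17% and 7.11% in control. COX1 took 22.0% in each Treg co-culture library, against 23.1%, 23.2% and 23.2% in the control libraries. The ratio of ND1 to COX1 within a library was 0.361, 0.367 and 0.359 in Treg co-culture and 0.310, 0.309 and 0.306 in control, which is 1.17 times higher and 1.16, 1.19 and 1.17 times within batches 1 to 3. COX3 also held a slightly larger share in Treg co-culture (12.5% to 12.6%) than in control (12.1% to 12.2%), and ND6 a smaller one, at 2.40%, 1.76% and 2.08% in Treg co-culture and 2.46%, 2.53% and 2.41% in control. The shares of the other 9 genes overlapped between the groups. These shares show that the mitochondrial transcripts changed unequally, and not which of them changed in absolute amount.

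**Figure D4:**
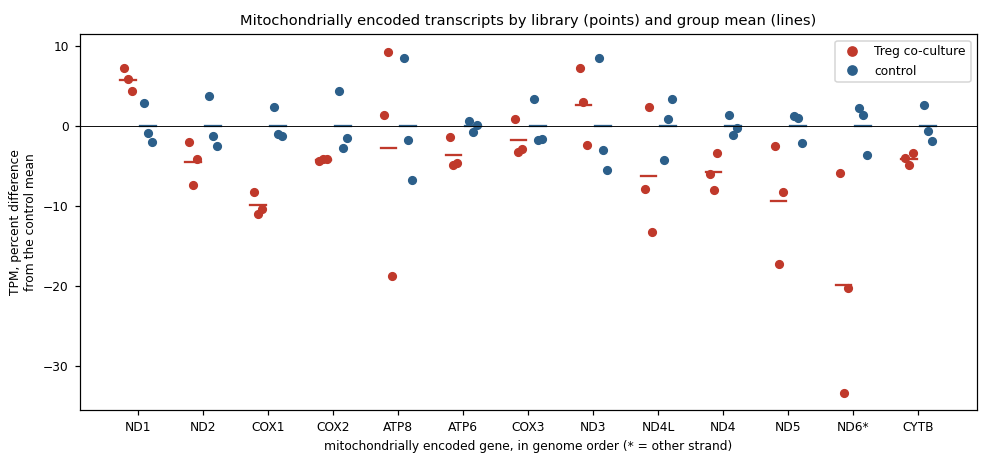
TPM of the 13 mitochondrially encoded genes as percent difference from the control mean, in the order of the genome, with a point for each library and a line at each group mean. The Treg co-culture points lie above all control points for ND1 and below them for COX1, COX2, ATP6, ND4, ND5, ND6 and CYTB, while those of the other 5 genes overlap.

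Several mitochondrial genes share bases, which limits how far their values can be separated. On GRCm38, ATP8 and ATP6 share 43 bases (within chrM:7907-7989), ND4L and ND4 share 7 bases (within chrM:10147-10193) and ND5 and ND6, on opposite strands, share 14 bases (within chrM:13532-13585). The 3 stretches are shown on the plus strand with the shared bases in capitals, because ND6 is the member with the lowest log2 fold change of its genome and ATP6, ND4 and ND5 are among those called.
ATP8 and ATP6: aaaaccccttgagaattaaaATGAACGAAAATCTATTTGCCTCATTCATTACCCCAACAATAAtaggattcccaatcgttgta
ND4L and ND4: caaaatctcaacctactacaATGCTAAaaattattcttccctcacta
ND5 and ND6: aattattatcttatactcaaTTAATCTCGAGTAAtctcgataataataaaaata
ATP6 also shares 1 base with COX3. Whether counting used strand, and how reads over shared bases or over nuclear copies of mitochondrial sequence were assigned, is not known here. The separate values of ND5 and ND6, and of ATP8 and ND4L beside their neighbours, are therefore uncertain.

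Genes that build, express or feed the complexes were described from lists outside the members. Of 49 assembly factors tested, 12 were higher (24.5%, against 19.8% of all genes tested) and 2 lower (4.08%, against 18.0%), with a median log2 fold change of 0.0887. Without Treg co-culture library 1 or 3, 7 (14.3%) were higher, below the 17.1% and 16.6% of all genes higher there. Without the trend 8 (16.3%) were higher, not above the 17.1% of all genes. Cox17, a copper chaperone for complex IV, averaged 56.2 ± 2.74 TPM in Treg co-culture and 40.6 ± 3.72 TPM in control (SD, n = 3 each, log2 fold change 0.46, adjusted p = 0.000362), and Tmem70, which helps assemble complex V, had 0.32 (adjusted p = 0.000379). Surf1, an assembly factor of complex IV, was lower (-0.31, adjusted p = 0.00136). Of 33 genes for maintenance and expression of mitochondrial DNA, 9 were higher (27.3%) and 1 lower (3.03%), with a median of 0.0920, and 8 were higher and 0 lower without Treg co-culture library 1, while the mitochondrial DNA packaging factor Tfam averaged 17.3 ± 1.09 TPM in Treg co-culture and 17.1 ± 0.846 TPM in control (0.0177, adjusted p = 0.867). Those higher included Fastkd2, an RNA-binding protein of mitochondria (0.47, adjusted p = 0.000379), Elac2, which cuts tRNA ends from mitochondrial precursors (0.42, adjusted p = 0.00137), and Ptcd3, a protein of the mitochondrial ribosome (0.34, adjusted p = 0.00161). Hsd17b10, a subunit of mitochondrial RNase P, was the 1 lower (-0.12, adjusted p = 0.0238).

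Among 18 nuclear regulators of respiratory genes tested, 4 were higher (22.2%, near the background of 19.8%) and 1 lower, with a median of 0.11. The 1 lower was Sirt3, a deacetylase of mitochondrial proteins, at 4.56 ± 0.929 TPM in Treg co-culture and 6.98 ± 0.897 TPM in control (SD, n = 3 each, log2 fold change -0.53, adjusted p = 0.0128), a call lost without control library 1. Myc averaged 68.7 ± 4.95 TPM in Treg co-culture and 50.7 ± 2.04 TPM in control (SD, n = 3 each, log2 fold change 0.43, adjusted p = 0.000196), and the muscle transcription factors Mef2a and Mef2c had 0.21 and 0.25. The other regulator called higher was the coactivator gene Pprc1, at 38.2 ± 2.53 TPM in Treg co-culture and 33.0 ± 0.603 TPM in control (0.20, adjusted p = 0.0179). Without Treg co-culture library 2 or 3, 3 of the 18 regulators were higher. Nrf1, Gabpa, Esrra, Yy1 and Creb1, which encode factors whose motifs were searched above, did not pass the test. Their log2 fold changes were 0.14, 0.0532, 0.0421, -0.0410 and 0.0785 (adjusted p = 0.327, 0.413, 0.807, 0.546 and 0.386). The E-box was searched for myogenic factors, whose genes were among the skeletal muscle markers. Of these, Myod1 and Myog were called higher, with log2 fold changes of 1.64 and 1.48. Myf6 was not called (0.22, adjusted p = 0.385), and Myf5 was below the minimum for testing. Whether these factors acted on the members was not tested. The coactivator gene Ppargc1a, at 0.580 TPM in Treg co-culture and 0.627 TPM in control, was also below the minimum for testing. Of 21 genes for coenzyme Q and electron entry, 6 were higher (28.6%, against 19.8% of all genes) and 2 lower (9.52%, against 18.0%). Without Treg co-culture library 1, 4 were higher (19.0%, near the 17.1% of all genes) and 3 lower. Without control library 3, 3 were higher (14.3%, below the 17.2% of all genes) and 1 lower. Pdss1, which makes the coenzyme Q tail, was higher (0.46, adjusted p = 0.00875), while Pdss2, the other subunit of the same enzyme, was lower (-0.60, adjusted p = 0.0142). Coq3, a methyltransferase of coenzyme Q synthesis, was higher (0.33, adjusted p = 0.00604), and Sqor, which feeds electrons from sulfide, was the other one lower (-0.34, adjusted p = 0.00151).

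Of 26 genes of the TCA cycle and pyruvate dehydrogenase, 10 were higher (38.5%, against 19.8% of all genes) and 2 lower (7.69%, against 18.0%), with a median of 0.0648. Without Treg co-culture library 1, 9 were higher and 3 lower. Idh3a, a subunit of NAD-dependent isocitrate dehydrogenase, averaged 79.9 ± 1.71 TPM in Treg co-culture and 56.4 ± 0.897 TPM in control (SD, n = 3 each, log2 fold change 0.49, adjusted p = 5.02e-06). Mdh2, mitochondrial malate dehydrogenase, had 0.24 (adjusted p = 6.61e-05), and Pdp1, a phosphatase that activates pyruvate dehydrogenase, was lower (-0.71, adjusted p = 3.44e-05). Pdk3, a kinase that inactivates pyruvate dehydrogenase, was lower as well (-0.22, adjusted p = 0.0141). Of 10 exchange and uncoupling genes tested, 5 were higher and 2 lower, against 4 and 1 without Treg co-culture library 1 and 0 lower without control library 2 or 3 or Treg co-culture library 3. Slc25a5, an ADP/ATP carrier of proliferating cells, was higher (0.36, adjusted p = 3.14e-06), as was Vdac2, a channel of the outer mitochondrial membrane (0.15, adjusted p = 0.00146), whereas Slc25a4, the carrier form of heart and muscle, was lower (-0.0757, adjusted p = 0.0388). Ckmt2, the mitochondrial creatine kinase of muscle, averaged 3.99 ± 1.28 TPM in Treg co-culture and 1.43 ± 0.308 TPM in control (1.01, adjusted p = 0.00299). Of 8 related subunits outside the naming rule, Chchd10 was higher (0.36, adjusted p = 0.0349) and Ndufa4l2, a paralogue of Ndufa4 known as a hypoxia target, was lower (-0.36, adjusted p = 0.00432). The call of Chchd10 was lost without any 1 library except control 2 or Treg co-culture 3.

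Markers of other cell types were read in the same libraries. Adult heart markers had a summed level of 135 to 174 TPM in Treg co-culture and 88.0 to 89.3 TPM in control, with 2 of 6 tested higher (Mb and Actn2), both also expressed in skeletal muscle. Without Treg co-culture library 1 only 3 heart markers reached the minimum for testing, and 2 of them were higher. Listed brown adipocyte markers summed to 73.4 to 81.0 TPM in Treg co-culture and 97.0 to 109 TPM in control, with 3 of 5 lower (Adipoq, Fabp4 and Plin1). Fabp4 averaged 70.9 ± 4.31 TPM in Treg co-culture and 93.6 ± 7.10 TPM in control (SD, n = 3 each), so the sum mostly gives its level. Prdm16 and Cpt1b were not called (adjusted p = 0.861 and 0.712 in limma's test), and the defining markers Ucp1 and Cidea were at 0 in every library. The lower sum therefore does not show a lower brown adipocyte signal. Macrophage markers summed to 68.4 to 79.9 TPM in Treg co-culture and 94.4 to 102 TPM in control, with 1 of 8 lower (12.5%, below the 18.0% of all genes). That gene, Lyz2, averaged 44.7 ± 6.26 TPM in Treg co-culture and 65.9 ± 4.18 TPM in control (SD, n = 3 each), so the sum mostly gives its level. Liver markers summed to 85.9 to 222 TPM in Treg co-culture and 85.9 to 90.1 TPM in control, with 0 of 8 called by limma (0 also at an unadjusted p under 0.05). Most of the liver sum outside Treg co-culture library 1 was Trf, which averaged 90.9 ± 9.17 TPM in Treg co-culture and 85.2 ± 2.89 TPM in control (SD, n = 3 each). Without Treg co-culture library 1 only 1 liver marker reached the minimum for testing. The rest reached it through that library alone, and with such a spread the test cannot decide whether they differed. The part of these markers in the results on the members was not tested, and the mitochondrial to nuclear ratio was 0.890 times control without Treg co-culture library 1.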

How the data were processed

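Polyadenylated RNA of 3 Treg co-culture and 3 control libraries was enriched on capture beads and sequenced, per the labels' protocols. The authors deposited TPM values, 1 column per library and 1 row per NCBI gene number, and all columns were used. The submitters' processing notes name GRCm38, mm10 and GRCm39 without a role, while aligner, counter, annotation, strand setting and read depth were not given in the sources used here. Symbols came from RefSeq GRCm38.p6 (21992 of 22186 rows, 99.1%) and mitochondrial gene positions from GENCODE on GRCm38.

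The 12405 genes whose mean over all libraries reached 1 TPM were tested on the log2(TPM + 1) scale, which understates fold changes of low genes, with limma 3.58.1 in R 4.3.3 (lmFit, eBayes with trend, Benjamini-Hochberg, threshold 0.05). The procedure was run on simulated data with independent errors and no batch or outlying library, so that run does not cover such features. Python 3.11.15, pandas 2.3.3 and matplotlib 3.10.9 made tables and plots. Alternatives were other pseudocounts, filters, scalings, a stricter threshold, no trend, the replicate block and leaving out each library. The labels tie equal replicate numbers to 1 batch, so the numbers pair the libraries. The main test did not use this pairing, which entered only in the replicate block. Deviations of same-numbered libraries correlated at 0.0115, -0.0146 and 0.00402 for batches 1 to 3, against -0.0606 to 0.0653 for other pairs. Values per library were given for all mitochondrial members and up to 4 nuclear members a complex with the lowest adjusted p, fold changes or levels for isoform families and up to 3 genes a pathway list with the lowest adjusted p, and for other genes where a count or a role called for them. Members and lists were chosen with earlier results of these data known. Coa1, Fastkd4 and Trac of the lists matched no row.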

Additional observations from a re-analysis of the deposited data

How the results depend on the processing

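Of 34 calls among the members, 12 held in all 16 other settings (Ndufv1, Ndufb9, Uqcrc1, Cyc1, Cycs, Cox5a, Cox7a2, Cox7b, Atp5b, Atp5g3, Atp5a1 and Atp5md), and no call reversed. Members called lower numbered 2 without the filter, 5 under quantile normalization and 1 without the trend, against 9, and those called higher 14 without the trend, against 25. At an adjusted p of 0.01, 14 members were higher and 2 lower, and 13.1% of all genes were higher. At that threshold 3043 of all genes were called, against 4688. The mitochondrial median was 0 under quantile normalization, which fixes the highest ranks by its construction. Leaving out each library gave 19 to 25 members higher, 4 to 8 lower, mitochondrial medians of -0.0820 to -0.0420, nuclear medians of 0.0738 to 0.0843, mitochondrial to nuclear ratios of 0.889 to 0.906 times control and 3977 to 4218 genes called, with fewer libraries by construction. With the replicate block 27 members were higher, 12 lower and 4492 genes called. It ended the calls of Ndufb5, Ndufs8 and Uqcrfs1, added Atp5c1, Atp5mpl, Cox7a1, ND2, Ndufa1, Ndufv2, Ndufv3 and Uqcr11, and changed no other member's call.

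Signs turned only in log2 fold changes near 0 or of low genes, of which COX2 alone had been called. Under quantile normalization COX2 was at 0.0245, Sdha at -0.0141 and Cox8a at -0.0082. When each library was left out in turn, the lowest and highest values were -0.14 and 0.0763 for ATP8, -0.0006 and 0.10 for ND3, -0.0118 and 0.0325 for Sdha (-0.0012 without control 1), -0.0279 and 0.14 for Sdhb, -0.45 and 0.13 for Cox4i2, -0.0481 and 0.0254 for Cox6b1, -0.0108 and 0.30 for Cox8b, -0.35 and 0.15 for Nppb, -0.28 and 0.0216 for Cpt1b, and -0.0293 and 0.0866 for Ikzf2. The cause was not tested. TPM keep no depth, so no limit by depth can be given.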
